A study of Mus musculus with 8 samples.

Results

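The broad common sites were stretches of open chromatin of 3 kb or more that held a peak in each of 4 mouse hair follicle cell populations. They were selected on deposited ATAC-seq peak lists: peaks of the 4 lists that overlapped by 1 bp or more were merged into sites, sites on chromosomes M and Y were left out, and a site was kept when all 4 lists had a peak in it and its merged length was 3000 bp or more. This gave 529 sites among 31420 sites common to all lists (1.68%) and 114956 merged sites in all (0.460%). Presence in all lists and length therefore describe how the sites were chosen and are not findings about them.

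ATAC-seq marks open DNA by the insertion of sequencing adapters by a transposase. It was run on sorted back skin cells, with 2 samples per population and 8 in all, from mice of mixed sex. Bulge stem cells (sorted as positive for GFP, CD34, Itga6 and Itgb1) and hair germ cells (the same gate, but negative for CD34) were taken at postnatal day 55, in the second resting phase or telogen. Basal transient amplifying cells, or TACs (GFP- and CD34-, Itgb1 high, Pcad+, SCA1-), and suprabasal TACs (GFP low, Itga6-, CD34-) were taken at postnatal day 30, in the growth phase or anagen. Bulge, hair germ and basal TAC samples came from Lgr5-eGFP-ires-CreER mice, which carry eGFP and CreER under Lgr5. Suprabasal TAC samples came from K14-H2BGFP mice, which carry a histone-GFP fusion under the keratin 14 promoter. Population, age, hair cycle phase and, for suprabasal TACs, strain cannot be told apart in this design. Each population has 1 peak list, called on both samples pooled, so there is no spread between replicates and no test between populations. The bulge list rests on 24065469 fragments, the hair germ list on 11053351, the basal TAC list on 30824845 and the suprabasal TAC list on 47852893.

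Open chromatin at most gene starts spans little more than the nucleosome-free promoter. Longer open stretches are known where CpG-rich promoters, the first part of a transcribed gene and neighbouring enhancers lie side by side. In the hair follicle the bulge keeps quiescent stem cells, the hair germ gives the first proliferating cells of a new cycle, and the TACs divide and differentiate into the hair shaft and its sheaths.

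The promoters of the 4 longest members with an entry in the RefSeq promoter table show what kind of sequence lies in these sites. Each line gives the 250 bases before the annotated start, 5′ to 3′ on the gene's strand, in build GRCm38.p6, the same assembly as mm10. Capitals mark matches to 4 short motifs on either strand: CCAAT, which reads ATTGG on the other strand; GGGCGG, the GC box; TATAAA, the usual form of a TATA box; and TGANTCA, the core that AP-1 factors are known to bind. In the Zfp36l1 line the last capital run joins the TATAAA match to a reversed CCAAT match, which share 1 base.
Junb (AP-1 subunit; chr8:84978749-84978998, minus strand): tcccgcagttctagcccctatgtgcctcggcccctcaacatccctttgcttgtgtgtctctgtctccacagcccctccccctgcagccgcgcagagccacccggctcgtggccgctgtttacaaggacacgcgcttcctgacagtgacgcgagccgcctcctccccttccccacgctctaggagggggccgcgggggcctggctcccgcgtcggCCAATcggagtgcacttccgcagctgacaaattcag
Zfp36l1 (RNA-binding protein of mRNA decay; chr12:80113014-80113263, minus strand): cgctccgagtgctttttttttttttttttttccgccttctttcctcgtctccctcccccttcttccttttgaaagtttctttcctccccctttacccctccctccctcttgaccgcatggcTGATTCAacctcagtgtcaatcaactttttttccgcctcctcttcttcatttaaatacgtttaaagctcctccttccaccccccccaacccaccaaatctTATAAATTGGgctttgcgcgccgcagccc
Shb (adaptor of receptor tyrosine kinases; chr4:45530829-45531078, minus strand): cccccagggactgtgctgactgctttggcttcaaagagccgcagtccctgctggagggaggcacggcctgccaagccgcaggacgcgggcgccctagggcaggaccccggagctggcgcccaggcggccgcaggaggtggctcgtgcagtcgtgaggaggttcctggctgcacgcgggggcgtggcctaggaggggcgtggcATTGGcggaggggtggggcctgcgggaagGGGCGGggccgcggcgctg
Dusp7 (phosphatase of ERK kinases; chr9:106368382-106368631, plus strand): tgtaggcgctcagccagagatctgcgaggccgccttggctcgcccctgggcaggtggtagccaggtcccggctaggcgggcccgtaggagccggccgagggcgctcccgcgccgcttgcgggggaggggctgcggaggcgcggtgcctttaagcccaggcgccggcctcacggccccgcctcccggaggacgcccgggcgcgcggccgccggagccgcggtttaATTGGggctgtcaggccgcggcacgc
All 4 lines hold 1 CCAAT match, near the start. The Dusp7 window was the richest in CpG, with 34 CpG in 250 bases and 77.2% G or C. The Zfp36l1 window was the poorest, with 10 CpG and 48.4% G or C, and it alone held a TATAAA match as well as one to TGANTCA. The GC box was found in the Shb window only. A match describes letters and is not evidence that a factor binds there.

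Merged lengths of the 529 sites ran from 3001 to 7429 bp with a median of 3282 bp and quartiles of 3110 and 3542 bp. The other 30891 common sites had a median of 1271 bp. Of the broad sites 381 were under 3500 bp, 58 were 4000 bp or more and 7 were 5000 bp or more. They covered 1.82 Mb, 4.19% of the bases of all common sites. The length came from single long peaks at some sites and from merging at others: at 214 sites no list had a peak of 3 kb or more of its own, at 208 only 1 list did, at 60 sites 2 lists, at 29 sites 3 lists and at 18 sites all 4. At 163 sites each list had exactly 1 peak. A median of 48.03% of a broad site (1633 bp) was covered by all 4 lists at once, 23 sites had 3000 bp or more covered by all, and 12 sites had no base covered by all.

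**Figure D1:**
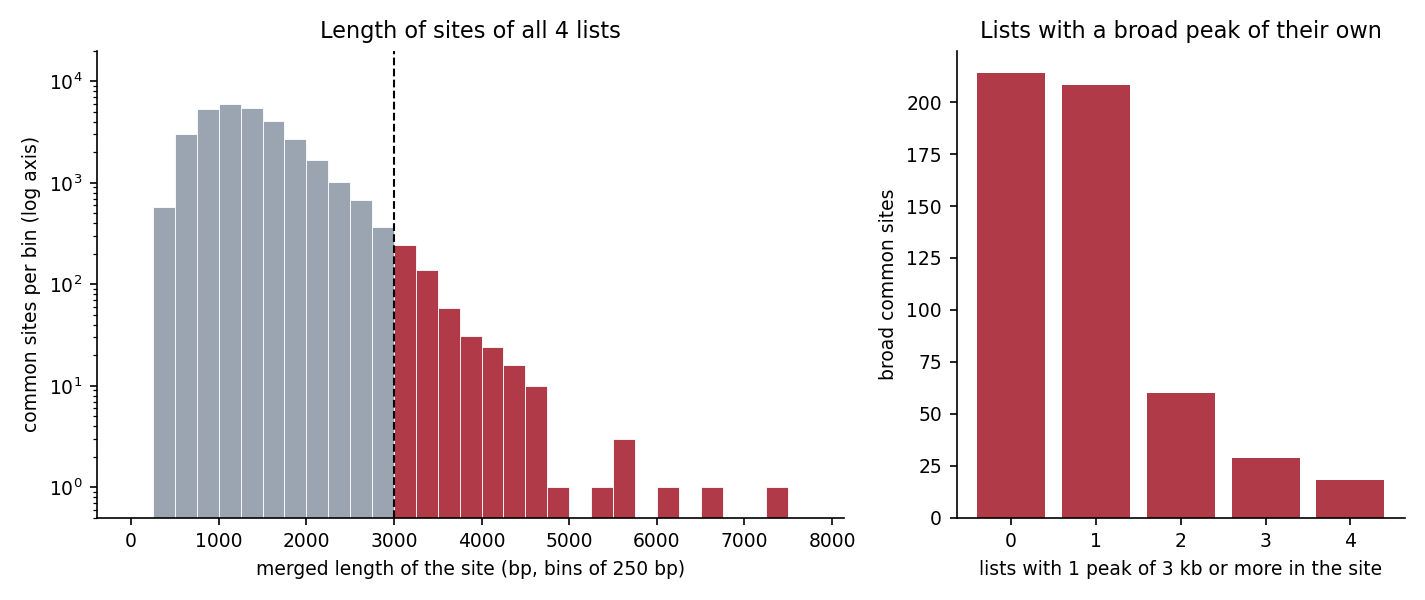
Left, number of common sites per 250-bp bin of merged length on a log axis, with the 3000-bp threshold dashed and the selected sites in red. Right, number of broad common sites by how many lists hold a single peak of 3 kb or more in the site; 214 of the 529 have none and 18 have such a peak in all 4 lists.

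Sites just inside and just outside the threshold had heights in overlapping ranges. The 3 members nearest to it were 3001 bp each, at Ptbp1 (a splicing regulator), Sphk1 (sphingosine kinase) and Sh3d19. Just outside lay sites of 2998 bp at Deptor and at Rev1 and of 2996 bp at Myo1e. The highest fragment coverage in the bulge, per 1000000 fragments, was 13.4, 4.94 and 10.5 at the first group and 4.32, 6.69 and 15.5 at the second.

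A small set of members stood apart by position. On chromosome 9, 7 members lay within the first assembled stretch beside the centromeric end, chr9:3000002-3038045 (38.0 kb), at least 297 kb from the nearest protein-coding gene, Alkbh8, and on chromosome 17 a member at chr17:39843114-39848707 overlapped the ribosomal RNA pseudogene Rn18s-rs5 and the long noncoding RNA gene AY036118. Among the 12 longest members 4 belonged to these 8, and among the 5 longest members over 10 kb from any gene span all 5 did. The treatment of reads that match several places was not given in the sources used here. Their part in the results below is shown by the values without them, over 521 sites, where these differ.

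In each list, the highest fragment coverage (pileup) of any peak in the site, per 1000000 fragments of that list, is called the height here. The covered share is the percent of the merged length under the list's peaks. The broad common sites were covered to a median of 78.9% by bulge peaks (quartiles 60.2 and 92.4%), 65.3% by hair germ peaks (49.5 and 78.3%), 80.4% by basal TAC peaks (64.4 and 92.1%) and 82.0% by suprabasal TAC peaks (65.4 and 94.3%). The hair germ list, the shallowest, had the lowest share, with the largest share of the 4 lists at only 20 members against 166 for the bulge, 158 for basal TACs and 185 for suprabasal TACs. Other common sites gave the same order of the hair germ at the bottom, at 73.6%, against 83.9% in the bulge, 82.4% in basal and 85.3% in suprabasal TACs. A single peak of 3 kb or more was present at 142 members for the bulge list, 48 for the hair germ list, 146 for the basal and 151 for the suprabasal TAC list. The part of depth in these shares was not tested.

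The broad sites were also tall, though height was not tested apart from the length that chose the sites. Median heights in the bulge, hair germ, basal and suprabasal TAC lists were 7.48, 7.15, 4.64 and 3.36, against 4.07, 4.16, 3.08 and 1.86 at the other common sites. These are ratios of 1.84, 1.72, 1.51 and 1.81. Fold enrichment over the caller's local background, a 10 kb window that a broad site partly fills itself, had the opposite order: medians were 6.93, 6.84, 6.52 and 5.61 at the broad sites and 9.41, 8.78, 8.61 and 6.44 at the others. Which group of sites is the higher therefore depends on whether the authors' pileup or their fold enrichment is read. The bulge had the greatest height of the 4 lists at 258 members, the hair germ at 188, basal TACs at 55 and suprabasal TACs at 28. These are 48.8, 35.5, 10.4 and 5.29% of members, against 40.6, 36.8, 18.3 and 4.22% of other common sites. Suprabasal TACs had the lowest height at 414 members (78.3%), much as at other common sites (75.4%).

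**Figure D2:**
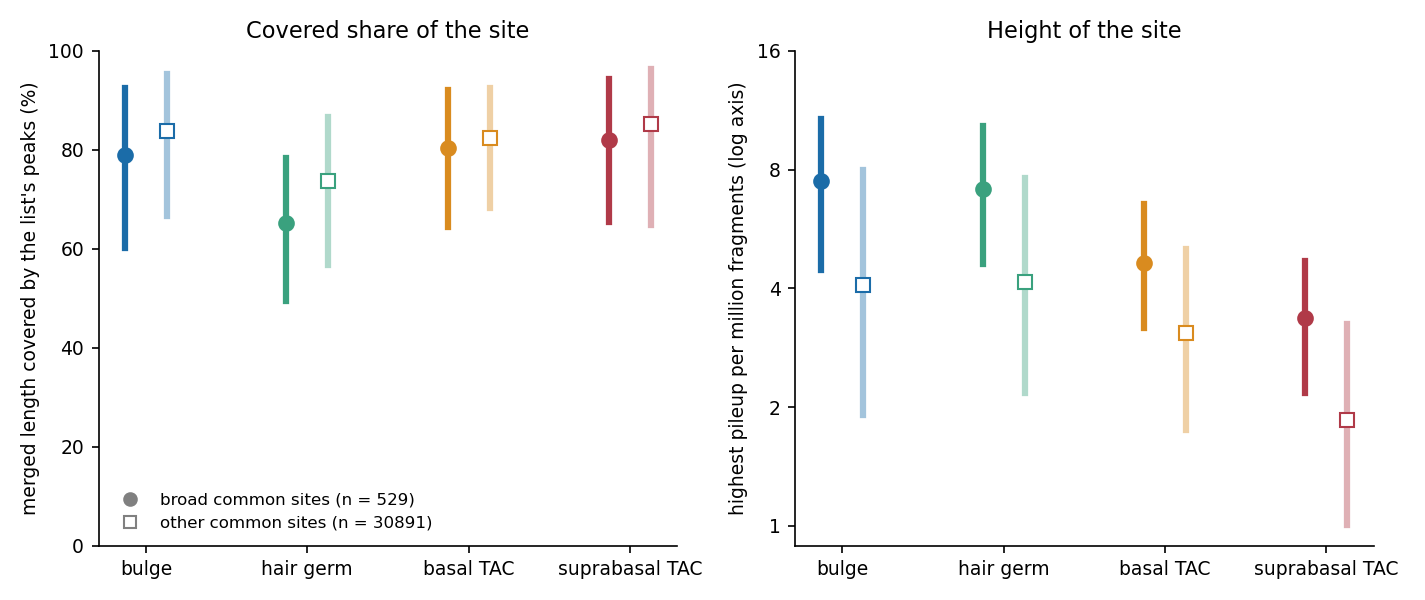
Median (symbol) and quartiles (bar) over sites of the covered share in percent (left) and of the height on a log axis (right), for broad common sites (filled circles) and other common sites (open squares) in each list. Broad sites are taller in each list, with medians from 7.48 in the bulge to 3.36 in suprabasal TACs, and are covered to a lower median share.

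The highest point of a broad site often lay in different places in different lists. The highest summits of the 4 lists were within 150 bp of each other at 167 members, 31.6% (95% Wilson interval 27.8 to 35.7%), against 60.4% (59.8 to 60.9%) of the other common sites. Intervals here and below cover counting error over sites only. The median distance between the outermost of the 4 summits was 629 bp at members and 108 bp at other sites, and 229 members had a distance over 1 kb. Heights of some lists at those members are thus read at places over 1 kb apart. A longer site leaves more room for this distance, so it was not read as a difference beyond length. Heights in different lists ranked the members alike within the resting-phase pair: Spearman's rho over the 529 members was 0.938 for bulge and hair germ, 0.729 for basal and suprabasal TACs and 0.534 for bulge and suprabasal TACs. Other common sites gave much the same values for these pairs, at 0.927, 0.703 and 0.575. Covered shares ranked the members less alike than heights did, at 0.692, 0.173 and -0.0829. These are descriptions across sites, which share their 4 libraries.

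The longest member, 7429 bp at chr8:84975440-84982868, spanned the whole of Junb, a subunit of the AP-1 transcription factor, and lay within 1 kb of an end of Prdx2, the gene of a peroxide-reducing enzyme. Its height was 17.1 in bulge, 16.9 in hair germ, 8.47 in basal TAC and 5.89 in suprabasal TAC cells. Peaks covered 58.6, 53.0, 46.0 and 79.9% of it, so the tallest list was not the one with the widest coverage. The second longest, 6740 bp inside Tmem267 on chromosome 13, was of another kind: heights were 1.16, 1.09, 1.46 and 3.32 and covered shares 10.2, 10.9, 58.4 and 98.9% in the same order of lists. There 1 suprabasal peak covered 6667 of the 6740 bp. Basal TACs had 3 peaks that covered 3936 bp, while bulge and hair germ peaks covered 687 and 733 bp.

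Zfp36l1, whose protein drives decay of AU-rich mRNAs, lay in a 5523-bp site at chr12:80111328-80116850 with heights of 7.11, 7.24, 5.22 and 3.45. A 5252-bp site inside Plec, the gene of the hemidesmosome linker plectin, had heights of 13.4, 14.3, 8.43 and 6.71 at chr15:76194600-76199851. The Shb site (4932 bp, chr4:45528027-45532958) had 9.81, 9.23, 5.42 and 4.62. All 3 were highest in the resting-phase lists and lowest in suprabasal TACs, which were also the lowest at 75.4% of other common sites. Centred on the median of all common sites, the log2 difference of suprabasal TACs from the bulge was 0.0979, 0.140 and 0.0547 at these 3. Dusp7 (4748 bp, chr9:106367262-106372009) had heights of 14.5, 12.1, 8.56 and 4.39. Marcks, a protein kinase C substrate (4686 bp), had 10.9, 9.86, 7.20 and 4.18, and Arrdc3, an arrestin-like regulator of receptors (4599 bp), had 19.2, 17.01, 12.6 and 8.84. The other members among the 12 longest are the ribosomal RNA site and 3 of the chromosome 9 sites.

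By mean height over the lists, the ribosomal RNA site led with 108, 131, 139 and 99.5 in the order bulge, hair germ, basal and suprabasal TAC. Its fold enrichment was 2.15 to 3.88, below the lower quartile of members in each list. Next came Gpr108 (30.8, 29.4, 17.2 and 10.7), Efnb2, a membrane-bound ephrin ligand (30.6, 27.7, 12.4 and 9.36), Rap2b, a small GTPase (23.3, 22.0, 16.2 and 10.4), and a site 30157 bp from Scaf8 (20.5, 27.5, 14.0 and 8.11). The last of these overlapped the transcribed pseudogene Pisd-ps2. Its fold enrichment was 17.7, 20.8, 16.5 and 10.8, above the upper quartile of members in each list. It is not among the 8 members set apart by position above. The Efnb2 site at chr8:8658932-8662084 was nearly filled in the hair germ and both TAC lists (98.4, 99.7 and 98.7% covered; bulge 88.0%), and its 4 summits lay within 2 bp.

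Members with the largest and smallest covered share in each list are named next. A large share in 1 list does not show that the length came from that list. At the Cpeb2 site below, for example, the other lists covered 93.5 to 97.9%. In the bulge list it was 100% at 26 members, the longest at Copz2, a coat protein gene (4146 bp), and at Snx18, a sorting nexin gene (4063 bp), and it was smallest at the site near Clvs1 (8.62%) and at Tmem267. In the hair germ list it was largest inside Cpeb2, a translation regulator (99.1%), and at Spag9, a JNK scaffold gene (98.8%), and smallest near Ell2 (7.003%) and Eif3h (9.43%). In basal TACs it was 100% at 20 members, the longest a chromosome 9 site and that at Ier2, an immediate early gene, and it was smallest near Enpp1 (11.2%) and in Kcnk10 (14.7%). In suprabasal TACs it was 100% at 40 members, the longest being 3 chromosome 9 sites, and it was smallest inside Niban1 (6.46%) and Cald1 (6.52%), genes of a stress-response protein and of the actin-binding caldesmon.

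Members lay near gene ends more often than the other common sites, and this share depends on the length of a site. A protein-coding gene's start or end was inside the site or within 1 kb of it at 317 of 529 members, 59.9% (55.7 to 64.0%), against 36.7% (36.1 to 37.2%) of other common sites. The share went up with length across all common sites: 18.1% under 1000 bp, 38.4% from 1000 to under 1500 bp, 49.6% from 1500 to under 2000 bp, 53.1% from 2500 to under 3000 bp, 58.8% from 3000 to under 3500 bp and 62.8% from 3500 bp up. Measured from the middle of the site, it was 38.6% (34.5 to 42.8%) against 33.2% (32.7 to 33.8%). This measure depends on length in the other direction, since a gene end inside a long site can lie over 1 kb from its middle. A gene end was inside the site at 53.3% of members and 31.1% of other common sites. Without a gene end within 1 kb, 124 members (23.4%) were inside a gene span and 88 (16.6%) outside any, 72 of them over 10 kb away. At least 2 genes had an end within 1 kb at 62 members (11.7%; other common sites 6.32%).

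Strand is known for genes in the promoter table, which covers the chromosomes of 516 members. An annotated start lay inside 260 of them, 50.4% (46.1 to 54.7%), against 29.6% (29.0 to 30.1%) of other common sites. At the 230 members with the start of 1 gene only, the site reached a median of 1273.5 bp upstream and 2172.5 bp downstream of it; at the 8045 other sites of this kind it reached 570 and 843 bp. The site was longer on the downstream side, within the gene, at 154 of the 230 (67.0%, 60.6 to 72.7%), much as at other common sites (70.1%, 69.1 to 71.1%). At 1000 bp downstream, 72.2% of these members had a bulge peak, 57.4% a hair germ peak, 67.8% a basal and 79.1% a suprabasal TAC peak. At 1000 bp upstream the shares were 47.0, 41.3, 45.7 and 40.9%. At this distance the suprabasal list was thus the highest of the 4 on the gene side, and upstream it was close to the hair germ list. At other common sites it was the highest on both sides, at 27.9% downstream (other lists 16.6 to 23.3%) and 9.70% upstream (7.73 to 9.11%). At 2000 bp the shares of members were 34.8, 27.8, 42.6 and 45.7% downstream and 13.0435, 10.4, 14.3 and 14.8% upstream, with the suprabasal list highest on both sides.

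**Figure D3:**
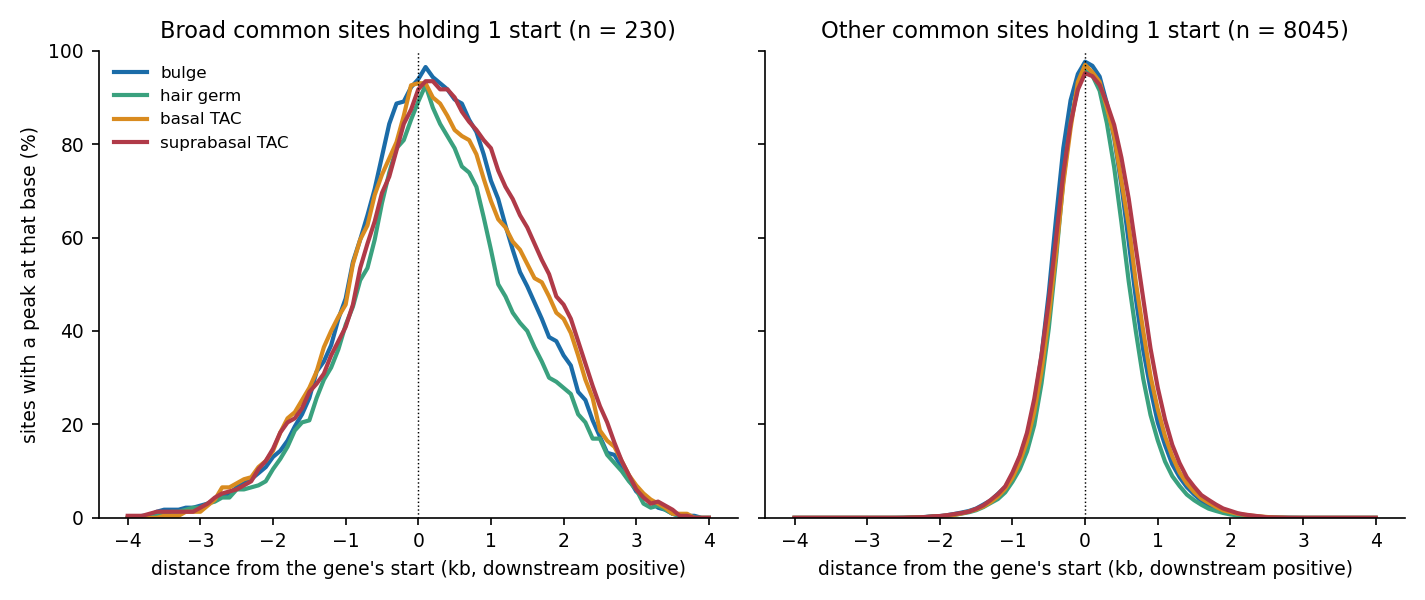
Percent of sites with a peak of each list at each distance from an annotated start (kb, positive within the gene), for the 230 broad common sites (left) and the 8045 other common sites (right) that hold the start of 1 gene. At the start itself 89.1 to 93.9% of the broad sites have a peak. On the gene side at 1 kb the suprabasal TAC line is highest in both panels, at 79.1 and 27.9%.

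The tallest point was less often at the start than in other sites. In the bulge the highest summit lay within 500 bp of the start at 141 of 230 members (61.3%, 54.9 to 67.4%), against 90.7% (90.0 to 91.3%) of other sites with 1 start. The values were 63.0, 61.3 and 58.7% in the hair germ, basal and suprabasal TAC lists. Genes lying wholly inside a site were 17 of the 386 with an end within 1 kb of a member (4.40%), against 74 of 12075 (0.613%) for other common sites. These 17 included Junb, S100a6, Rpl41, Icam4, Hcfc1r1, Tmem102 and 8 histone genes. A longer site leaves more room for a distant summit and for a whole gene, so neither was read as a difference beyond length.

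Promoter windows of 300 bases (250 before and 50 after the start) were at hand for 292 starts inside members, 9379 inside other common sites and 7794 with no peak. The median number of CpG per window was 24 in members, 22 in other common sites and 3 in windows without a peak, and the G or C share was 64.7, 62.0 and 47.3%. Of 10 motifs searched on both strands, the GC box GGGCGG was in 76.0% (70.8 to 80.6%) of member windows, 69.2% (68.2 to 70.1%) of other common ones and 46.3% of all 17491 windows. CCGGAAG, the core that ETS factors bind, went the other way, with 8.56% (5.87 to 12.3%) in members, 19.6% (18.8 to 20.4%) in other common sites and 11.9% of all windows. For the other 8 motifs the share of other common sites lay inside the interval of the members. CCAAT was in 37.0, 39.4 and 39.2% of member, other common and all windows, TATAAA in 6.51, 6.16 and 13.3%, and TGANTCA in 4.45, 4.61 and 7.03%. The remaining motifs were AAGATGGC, the core of YY1 sites (2.40, 4.84 and 3.21%), TGACGTCA (4.11, 3.58 and 2.33%), GCATGCGC (5.48, 5.74 and 3.602%), CTTTGAT (1.03, 2.39 and 3.28%) and AGATAA (4.79, 5.49 and 9.94%).

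Of 21627 protein-coding genes, 386 had an end within 1 kb of a member (1.78%). Among 15 gene lists, AP-1 and immediate early genes, which are transcribed at once after a stimulus, had the largest share: 10 of 24 (41.7%), namely Fosb, Fosl2, Jun, Junb, Atf3, Egr2, Ier2, Klf6, Zfp36l1 and Zfp36l2. All 24 had some common site near an end, and of all genes with one 3.12% had a broad one. The 10 sites had a median length of 3909 bp. Median height was 11.7 for the bulge list (range 5.53 to 19.8), 11.9 for the hair germ list (7.24 to 19.5), 7.88 for the basal list (2.89 to 11.0) and 5.06 for the suprabasal list (2.09 to 7.77). That is above the median of all members at 8, 10, 9 and 9 of the 10 sites.

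All 10 sites were lower in basal TACs than in the hair germ (log2 difference -1.50 to -0.23, median -0.56) and lower in suprabasal than in basal TACs (-0.75 to -0.41, median -0.58), close to the medians of all members. Hair germ and bulge differed in no common direction, with 4 higher and 6 lower in the hair germ. Atf3, a stress-induced factor, had a 4425-bp site with heights of 10.1, 13.7, 7.92 and 5.37 in the bulge, hair germ, basal and suprabasal TACs. Ier2 had a 4186-bp site with 11.1, 10.3, 7.53 and 4.47. Several of these genes are short, and the sites took in much of the transcribed part: all 1840 bp of Junb, 1520 of 1522 bp of Ier2 and 66.9% of Jun, but 1.61% of Fosl2.

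**Figure D4:**
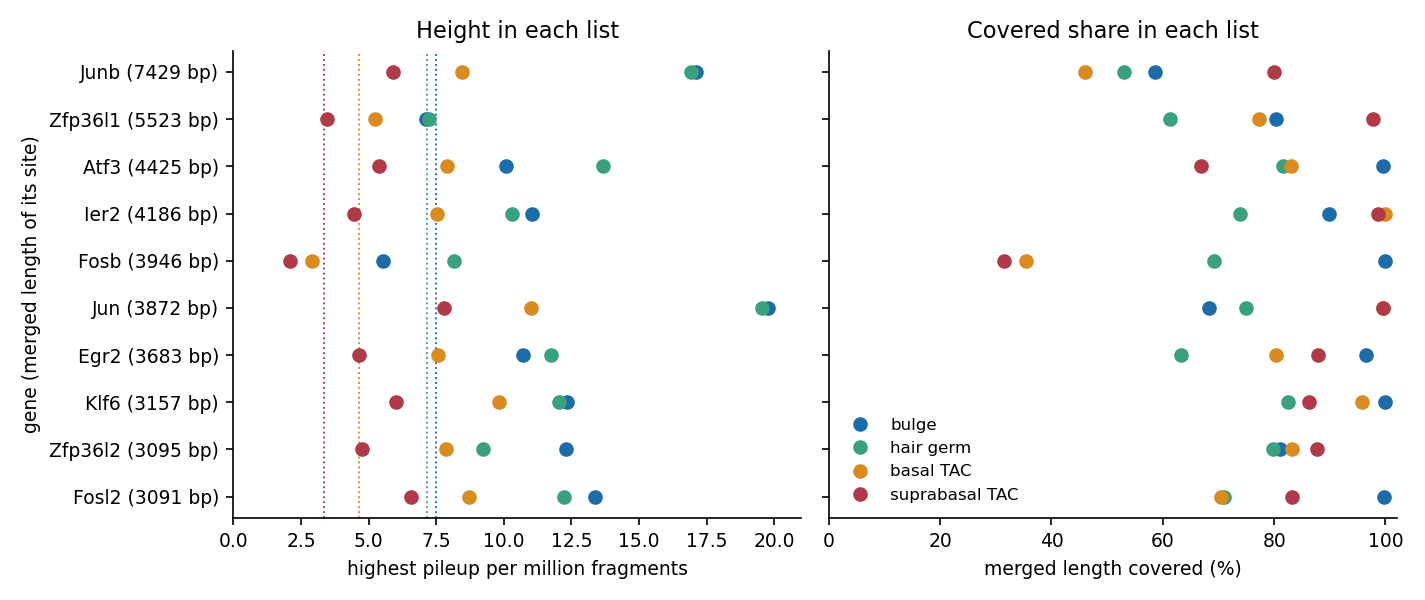
Height (left, highest pileup per 1000000 fragments, with the median of all 529 members dotted in the colour of each list) and covered share (right, percent) of the 10 broad common sites at AP-1 and immediate early genes, ordered by length. In height, resting-phase lists are above both TAC lists at each site and suprabasal TACs are lowest at all 10; covered shares have no such common order.

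Signalling genes came next in number: 5 of 32 had a member at an end, namely Fzd10, Notch1, Jag1, Jag2 and Fgfr3, and Egfr had one inside its span. Fzd10, a WNT receptor, had low heights of 2.16, 2.90, 2.08 and 2.97 in the bulge, hair germ, basal and suprabasal TACs. Its covered shares were 53.7, 51.1, 83.7 and 100%. Centred on the median of all common sites, its log2 difference of suprabasal TACs from the bulge was 1.60. Jag1, a Notch ligand, had heights of 2.45, 3.26, 8.66 and 7.73 at a site 203 bp from the gene that also overlapped Slx4ip. Here both TAC lists were above both resting-phase lists. Another Jag1 member, inside the gene span, had heights of 2.12, 2.44, 2.50 and 3.78. Jag2, the ligand's relative, had 4.86, 3.7998, 7.10 and 4.16, and Fgfr3, a fibroblast growth factor receptor, had 6.81, 6.60, 3.86 and 3.43. Of 20 adhesion genes Pkp3 (8.52, 8.69, 7.82 and 5.27) and Perp (18.7, 16.3, 7.14 and 6.29), both of desmosomes, had a member at an end. Besides the site above, Plec had another member inside its span, of 3318 bp (7.85, 8.32, 3.60 and 4.87).

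Few lineage genes were at members, and with an all-gene share of 1.78% (3.12% of genes with a common site) counts of 0 or 1 in short lists say little. Of 7 keratins Krt14 of basal keratinocytes was: its site at chr11:100207398-100210661 had heights of 8.89, 11.8, 4.70 and 0.940, with 20.3% covered in suprabasal TACs against 72.2 to 84.1% elsewhere. Of 18 bulge regulators Nfatc1, which is known to hold stem cells quiescent, had one at an end (10.1, 8.05, 1.75 and 1.27), while Lhx2 (14.8, 13.03, 8.37 and 3.82) and Tcf7l2 (3.37, 3.53, 2.66 and 1.003) had one inside the gene span. Of 19 matrix and differentiation regulators Bmp2 had one at an end (8.35, 7.69, 2.37 and 2.01), and Prdm1 and Foxp1 had one inside. Krt14 and Nfatc1 were the ones among these with the lowest suprabasal heights relative to the bulge. None of 17 epithelial transcription factors and none of 39 Hox genes had a member at an end, although 12 and 23 of them had a common site there.

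Cell cycle genes gave 2 of 14: Myc (10.6, 9.68, 4.74 and 4.74) and Cdk6 (10.2, 9.59, 6.10 and 4.87), with Cdkn1a, the p21 inhibitor, inside its span (8.39, 7.06, 5.19 and 4.07). Actb, the widely expressed gene of beta-actin, had a member at an end (6.15, 6.24, 5.81 and 4.10), and chromatin regulators gave 1 of 20, Arid1b (4.49, 4.79, 2.89 and 2.97). None of the 12 immune, 10 endothelial, 8 melanocyte and 10 dermal fibroblast markers had a member. Of these markers, 2, 6, 3 and 4 had a peak of all 4 lists nearby, against 14 of 15 markers of the sorted lineage, where Krt15 had no peak in suprabasal TACs. The part of other cells in the members' values was not tested.

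Between populations, heights at the members moved about as those of all common sites did. Against the bulge, the hair germ had a median log2 difference of -0.04 over members (all common sites 0.02). By 2-fold or more, 10 members (1.89%) were higher in the hair germ and 8 (1.51%) lower, against a background over all 31420 common sites of 5.18% and 1.61%. Centred on the median of all common sites, 8 were higher and 8 lower, with backgrounds of 4.96% and 1.69%. The share higher in the hair germ (1.03 to 3.44%) was thus below the background, and the share lower was near it.

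Basal TACs against the hair germ gave a median of -0.58 (all common sites -0.55), with 18 members (3.40%) higher and 109 (20.6%) lower by 2-fold. The backgrounds were 5.83% and 23.9%. After centring, 45 (8.51%) were higher and 38 (7.18%) lower, with backgrounds of 13.3% and 8.2%. Suprabasal against basal TACs gave a median of -0.52 (all common sites -0.61), with 7 (1.32%) higher and 91 (17.2%) lower, against 1.73% and 27.6%. After centring the median difference over members was 0.09, with 35 (6.62%) higher and 31 (5.86%) lower, against 6.55% and 12.5%. Both shares of lower members, with intervals of 14.2 to 20.7% and 4.159 to 8.198%, lay below their backgrounds. Position was not held equal here: 59.9% of members and 36.7% of other common sites had a gene end within 1 kb. Among other common sites, the share lower before centring was 12.4% near gene ends and 36.6% away from them. The part of position and of height in the shares of each comparison was not tested. Suprabasal TACs against the bulge gave -1.14 in members and in all common sites, with 17 (3.21%) higher and 317 (59.9%) lower, against 4.05% and 56.5%, and after centring 65 (12.3%) higher and 52 (9.83%) lower, against 17% and 14.1%. The comparisons share lists and are not independent of each other.

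Whether members near and away from gene ends differed between lists depended on the comparison. At the 317 members with a gene end within 1 kb, 31 (9.78%, 6.98 to 13.5%) were lower by 2-fold in suprabasal than in basal TACs, against 60 of the other 212 (28.3%, 22.7 to 34.7%). Other common sites showed the same contrast, at 12.4 and 36.6%. Between hair germ and bulge, 2 of the 317 (0.631%) passed 2-fold in either direction, against 16 of the 212 (7.55%), and other common sites again gave the same contrast, at 1.69 and 9.84%. Between suprabasal TACs and bulge the members lower by 2-fold were 194 of 317 (61.2%, 55.7 to 66.4%) and 123 of 212 (58.0%, 51.3 to 64.5%), with overlapping intervals. Members at gene ends were also taller, with medians of 8.19, 8.05, 5.29 and 3.76 against 5.98, 5.88, 3.89 and 2.65, and more of their length was covered by all 4 lists (55.2 against 36.3%).

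**Figure D5:**
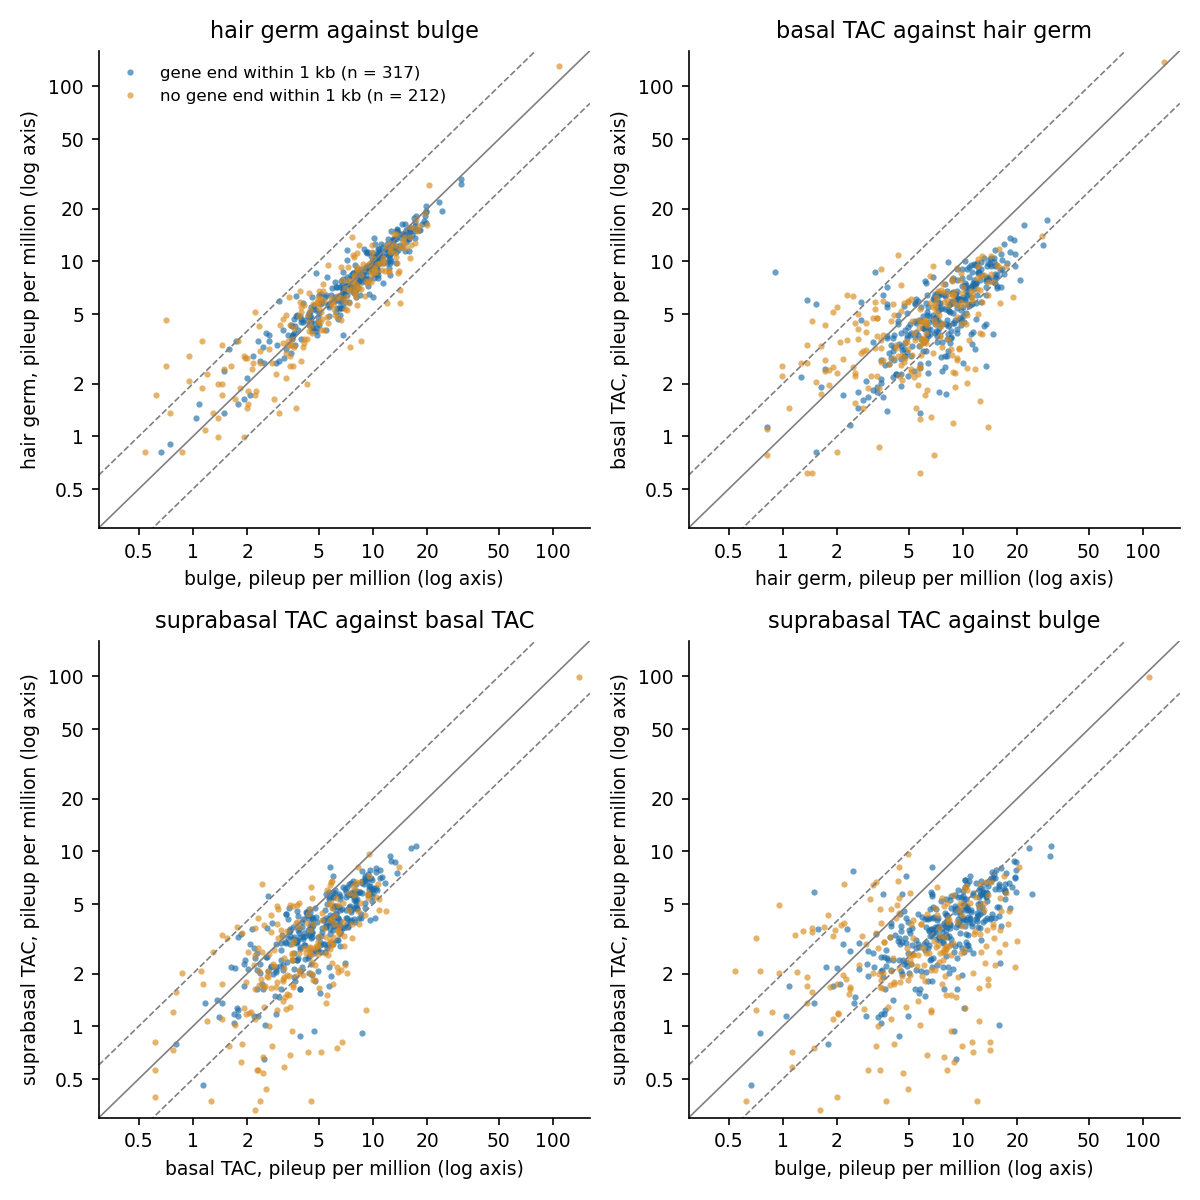
Height of each of the 529 broad common sites in pairs of lists (highest pileup per 1000000 fragments, log axes), with equality as a solid line and 2-fold differences dashed, coloured by distance to a gene end. Sites follow the diagonal in hair germ against bulge, while the lower right panel shows 317 sites beyond the 2-fold line towards the bulge; the isolated point at the upper right of each panel is the ribosomal RNA site.

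Members highest in the resting-phase lists included the 3 with the lowest suprabasal TAC height relative to the bulge. Inside Kcnk10, a potassium channel gene (chr12:98572233-98575296), heights in the order bulge, hair germ, basal and suprabasal TAC were 14.1, 5.79, 0.616 and 0.815. Near Plin2, a lipid droplet coat gene (chr4:86683792-86686875), they were 14.1, 6.88, 0.779 and 0.731. Near Phlpp1, an AKT phosphatase gene (chr1:106425345-106428585), they were 11.9, 5.79, 1.27 and 0.376. The log2 difference of suprabasal TACs from the bulge was -4.12, -4.27 and -4.99 at these sites. All 4 lists together covered 14.7, 37.1 and 6.60% of them. The outermost summits lay 2077, 2055 and 656 bp apart, so these heights can belong to different places within a site. Inside Nhsl1 (chr10:18489002-18492319) the hair germ was highest (7.65, 13.8, 1.14 and 1.76), and basal TACs were lower than the hair germ by a log2 difference of -3.61.

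Other members were high in basal TACs. At Dnajb13 (chr7:100500667-100503861), a gene of axonemal radial spokes, heights were 0.748, 0.905, 8.73 and 0.919, and the log2 difference was 3.27 against the hair germ and -3.25 in suprabasal against basal TACs. At Foxe1, a forkhead factor gene (chr4:46342109-46345597), they were 1.08, 1.54, 5.71 and 1.69, and inside Cald1 (chr6:34720512-34723595) 1.496, 2.44, 6.33 and 0.752. At Mgst1, a glutathione transferase gene (chr6:138140041-138143753), they were 1.496, 1.36, 6.03 and 5.83, high in both TAC lists. Only the basal list is high at the first 3 sites. A peak of each list is present at all of them, yet at Dnajb13 no base was covered by all 4 lists and the summits lay up to 3059 bp apart.

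Fewer members were highest in suprabasal TACs. Inside Chd6, a chromatin remodeller gene (chr2:160953325-160956404), heights were 0.956, 2.08, 3.47 and 4.95, a steady order from bulge to suprabasal TACs. Inside Slc37a3 (chr6:39345362-39349182) they were 0.706, 2.53, 1.56 and 3.18, and at a site 111101 bp from Ino80d (chr1:62933650-62936700) 2.202, 5.16, 2.43 and 6.52. Inside Nxpe4 they were 3.16, 3.44, 0.876 and 2.01, so suprabasal TACs were above basal TACs (log2 difference 1.196) but below the resting-phase lists. The Tmem267 site above had a log2 difference of 1.19 against basal TACs.

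Between hair germ and bulge the extreme members were few. Inside Scnn1b, the beta subunit gene of the epithelial sodium channel (chr7:121871937-121875093), heights were 0.706 in the bulge list but 4.61 in the hair germ list, with 2.92 in basal and 1.23 in suprabasal TACs. Slc37a3 (log2 difference 1.84) and a site 2692 bp from Abracl (1.12, 3.53, 3.21 and 0.585) were also higher in the hair germ. Inside Niban1 (chr1:151660324-151663452) heights were 3.74, 1.45, 4.54 and 0.376, and inside Morc2a, a gene of a chromatin silencing ATPase, 8.60, 3.53, 3.57 and 0.940, both lower in the hair germ. Low heights rest on few fragments: the hair germ's lowest height among members, 0.814, stands for a coverage of 9 fragments.

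At the chromosome 9 stretch, the order of the lists was turned round. Heights of its 7 members ran from 1.45 to 4.40, 1.72 to 6.60, 2.73 to 8.21 and 3.28 to 8.15 in the bulge, hair germ, basal and suprabasal TAC lists. Covered shares were 56.7 to 90.3, 39.6 to 92.1, 75.7 to 100 and 82.9 to 100%. Leaving out these 7 and the ribosomal RNA site moved the median log2 differences over members by little, to -0.04, -0.58, -0.52 and -1.15 over 521 sites. All 529 members were spread over all chromosomes analysed, from 0.714% of the common sites of X to 2.37% of those of chromosome 12, and 64 of those 521 sites had another of them within 100 kb.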

How the data were processed

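ATAC-seq was done on 4 sorted mouse skin populations. Build mm10 and the tools Bowtie2 2.2.9, Picard and MACS2 are named, per the submitters' processing notes. Per the file headers, peaks were called with MACS 2.1.1.20160309 at a q-value cutoff of 0.05, without a control library and with a local window of 10 kb. Whether read ends were shifted for the transposase was not given in the sources used here. The 4 deposited lists give, for each peak, the pileup (fragment coverage signal at the summit), the −log10 p-value and q-value and the fold enrichment, a ratio to the local background, plus its position and length, as the authors' caller wrote them. Both −log10 columns carry a spreadsheet error as their name in the deposited files, and their place in the caller's output tells them apart.

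Peaks were merged, scaled per 1000000 fragments given in the file headers and placed against RefSeq genes and promoters (GRCm38.p6) with Python 3.11.15, pandas 2.3.3, NumPy 2.4.6 and SciPy 1.17.1; figures were drawn with matplotlib 3.10.9. The merging was tested on simulated peaks. The gene table has no strand or exons, so a gene end is either end of its span; 21627 protein-coding genes were used, and of 386 near members 307 were in the promoter table. Wilson intervals are at 95%. Marker and list genes were matched by symbol.

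The members, the gene lists and the settings were chosen with earlier results of these data known. Named sites are the 12 longest, the 5 tallest, the 3 most different each way in each of 4 comparisons, the 2 with the largest and the 2 with the smallest covered share per list, the 5 longest over 10 kb from a gene span, the 3 on either side of the threshold, and up to 4 genes per gene list. No test was made between populations, since each has 1 pooled list. Alternatives changed the overlap, the q-value, the number of peaks, the length, the lists used, the distance to genes and the measure of height; 2 of 17 were chosen after seeing the data.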

Additional observations from a re-analysis of the deposited data

Results flagged for a closer look

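On the mitochondrial chromosome, which was left out of all comparisons, 2 sites met the same length and presence conditions: 4601 bp, with heights of 1215, 1407, 877 and 507 per 1000000 fragments in the bulge, hair germ, basal and suprabasal TAC lists, and 3157 bp, with 1246, 1319, 838 and 486. They drew attention because they are a signal outside the data the report used, above the limit that a count of 0 allows.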

How the results depend on the processing

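Over 17 alternatives, 78 of 113 recomputed values stayed within the 95% interval of the value reported or, for the number of sites, within 1.5 times it. An overlap of 100 bp, a −log10 q of 10 or more, 56536 peaks per list, and leaving out the chromosome 9 and ribosomal RNA sites moved no result. A length of 2500 bp gave 1582 sites, 55.4% near a gene end and -1.20 for suprabasal TACs minus bulge. A length of 4000 bp gave 58 sites, with -0.49 for basal TACs minus hair germ and -1.04 for suprabasal TACs minus bulge. Requiring 3000 bp covered by all lists gave 23 sites, 69.6% near a gene end, covered shares of 96.2, 91.3, 93.7 and 96.6%, and log2 medians of -0.0866, -0.47, -0.35 and -0.93 in the order of the report. Leaving out the bulge list raised the shares of basal and suprabasal TACs to 86.9 and 87.9%, without the basal list those of bulge, hair germ and suprabasal TACs were 85.8, 69.1 and 87.4%, and without the suprabasal list those of bulge, hair germ and basal TACs were 88.6, 71.7 and 89.8%; fewer lists make a shorter merged site. Sites overlapping a gene end were 53.3%, those within 5 kb 65.8%, and those with their middle within 1 kb 38.6%.

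The length-weighted mean pileup gave -0.0855 for hair germ minus bulge and -0.53 for basal TACs minus hair germ. Centred on all common sites, basal TACs minus hair germ was -0.0358, and 2 medians turned sign, suprabasal minus basal TACs to 0.0924 and suprabasal TACs minus bulge to 0.000879. Fold enrichment in place of pileup gave -0.0821 for basal TACs minus hair germ, -0.18 for suprabasal minus basal TACs and -0.30 for suprabasal TACs minus bulge. The centred values are by construction the members' medians minus those of all common sites. The latter were -0.61 for suprabasal minus basal TACs and -1.14 for suprabasal TACs minus bulge. The cause of the shifts under the other measures was not tested. No paired analysis was possible because each deposited list pools both samples of its population. For the same reason no replicate could be left out, and low heights in the hair germ, the shallowest list, rest on few fragments.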

Other observations

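Gene families in the following sentences were chosen after the names of the members were seen, so their counts are descriptions only. Of 10 frizzled receptors, which bind WNT ligands, 4 had a broad common site at an end: Fzd5, Fzd7, Fzd8 and Fzd10. Heights in the bulge, hair germ, basal and suprabasal TACs were 24.1, 19.5, 9.47 and 5.73 at Fzd8, 12.1, 11.6, 7.43 and 4.01 at Fzd5, and 10.4, 9.23, 5.71 and 5.31 at Fzd7, so these 3 were highest in the bulge, unlike Fzd10. Of 17 Krüppel-like factor genes 3 had one, Klf6, Klf10 (14.3, 14.3, 7.75 and 6.79) and Klf13 (19.4, 18.3, 11.3 and 7.11). Of 9 plexins, the semaphorin receptors, 3 had one, and at Plxna1 the hair germ was highest and the bulge lowest (4.82, 8.59, 5.97 and 7.27). Of 8 ephrins, Efna3 and Efnb2 had one.

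Replication-dependent histone genes are short and lie in clusters. Of 63 such genes 9 had a broad common site at an end, at 3 sites on chromosome 13 with 3 genes each. The site of H4c9, H2ac11 and H2bc11 had heights of 17.2, 16.01, 8.95 and 6.54, and that of H4c1, H3c1 and H1f1 had 9.64, 9.41, 6.07 and 4.33. The site of H2bc7, H2ac7 and H3c4 had 4.57, 6.24, 7.56 and 5.73, with 25.2 and 28.4% covered in the resting-phase lists and 66.1 and 76.3% in the TAC lists. Only this site was higher in both TAC lists than in the bulge.

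Hairpins of 5 microRNA genes lay inside broad common sites: Mirlet7i, Mir7653, Mir5135, Mir1900 and Mir3109. The Mirlet7i site (chr10:122984992-122988122) had heights of 7.02, 5.34, 3.89 and 2.09 and lay 3938 bp from Mon2. The Mir3109 site, inside Anxa2, had 19.4, 18.9, 6.29 and 2.19. The mature let-7i-5p, from RefSeq, is shown because its seed (bases 2 to 8, in capitals) defines the let-7 family of differentiation-linked microRNAs.
let-7i-5p: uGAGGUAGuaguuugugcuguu

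At Fosb, singled out after its values were seen, the site was covered to 100% by bulge and 69.1% by hair germ peaks, but 35.5% by basal and 31.5% by suprabasal TAC peaks, and its summits lay 3078 bp apart.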
